A study of Mus musculus with 6 samples.

Results

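The genes described here are 10 feedback inhibitors of the ERK pathway, the phosphatase genes Dusp1, Dusp2, Dusp4, Dusp5 and Dusp6, the Sprouty genes Spry1, Spry2 and Spry4, and the Spred genes Spred1 and Spred2. They were taken by symbol, each from the brightest probe set that names no other gene, and all 10 were found among the 19938 genes measured in this way. Expression was measured in bone marrow cells of 6 diseased mice, 1 Affymetrix mouse gene array per mouse. All mice were lethally irradiated CD45.1+ recipients of CD45.2+ LSK cells, the fraction of marrow that holds stem and progenitor cells, and all donor cells had been transduced with Meis1. In the HoxA9AA/Meis1 group (3 mice) the second introduced gene was HoxA9AA with GFP, an altered form of the homeobox gene HoxA9, and in the HoxA9wt/Meis1 group (3 mice) it was wild-type HoxA9 with GFP. The labels state neither what the AA change is nor the promoter of the vectors, and they mention no sorting of the marrow, so that cells of the host may be present. The marrow was harvested when disease set in, and the mice of a group are given as biological replicates.

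ERK is the last kinase of a cascade that runs from receptor kinases through Ras, Raf and MEK. It induces its own inhibitors: dual-specificity phosphatases (the Dusp genes) remove the activating phosphates from ERK and related kinases, while Sprouty and Spred proteins act further up, on the steps that switch on Ras and Raf. For this reason the transcripts of several of these genes are widely used as a readout of ERK activity, and in myeloid cells they respond to growth factor receptors such as Kit, Flt3 and the receptor for colony-stimulating factor 1.

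None of the 10 genes differed between HoxA9AA/Meis1 and HoxA9wt/Meis1 marrow beyond the spread between mice. Dusp1, Spred1 and Dusp6 had lower means in HoxA9AA/Meis1 marrow, with differences of −1.02, −0.73 and −0.54 on the log2 scale, on which 1 stands for a 2-fold change, and the size of each of these differences depended on single mice. The remaining 7 genes had means within 0.17 of each other. With limma, 0 of the 10 genes had an adjusted p under 0.05, and the same holds for 0% of all 19938 genes. An unadjusted p under 0.05 was reached by 0 of the 10 genes, against 6.74% of all genes, and the 3 values of the groups were fully apart for 0 of the 10, against 11.4% of all genes. The mean was lower in HoxA9AA/Meis1 marrow for 7 of the 10 genes and for 47.2% of all genes, with a median difference of −0.06 over the 10 genes and 0.01 over all genes.

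**Figure D1:**
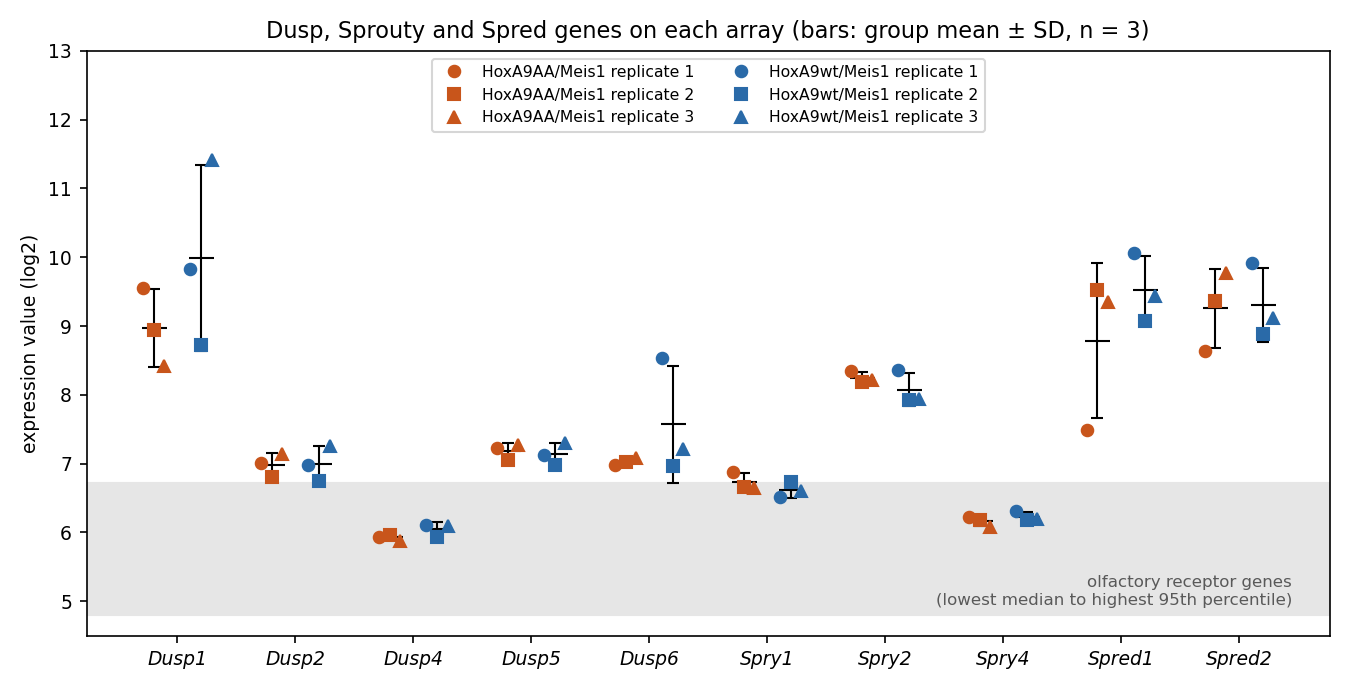
Expression values (log2, vertical axis) of the 10 feedback genes on each array; symbols are single mice, bars the group mean ± SD (n = 3), and the grey band reaches from the lowest median to the highest 95th percentile of olfactory receptor genes. Dusp1 is highest in HoxA9wt/Meis1 replicate 3 (11.41), Dusp6 in HoxA9wt/Meis1 replicate 1 (8.54), and Spred1 is lowest in HoxA9AA/Meis1 replicate 1 (7.49).

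As a measure of signal without expression, 1027 olfactory receptor genes had array medians between 4.80 and 4.88 and 95th percentiles between 6.52 and 6.72. All 6 blood cell genes tested, among them Ptprc and Spi1, lay above the 95th percentile on every array. HoxA9AA/Meis1 replicates 1 and 3 stood apart: across all genes, which are not independent, they correlated with the HoxA9wt/Meis1 arrays at 0.958 to 0.970. HoxA9AA/Meis1 replicate 2 did so at 0.989 to 0.991, and the HoxA9wt/Meis1 arrays among themselves at 0.987 to 0.990. Fewer cells of a type and less RNA per cell cannot be told apart in whole marrow.

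Dusp1 encodes a nuclear phosphatase of p38, JNK and ERK whose transcript appears within minutes of stimulation. It measured 9.55, 8.94 and 8.42 in HoxA9AA/Meis1 replicates 1, 2 and 3, against 9.83, 8.73 and 11.41 in HoxA9wt/Meis1 replicates 1, 2 and 3. The groups overlapped, with HoxA9wt/Meis1 replicate 3 highest, 2.13 above the mean of the other 2 mice of its group, and HoxA9wt/Meis1 replicate 2 1.89 below the mean of the other 2. The distance between the highest and the lowest mouse was 2.99, or 7.94-fold. The difference between the groups was −1.02 ± 0.67 (SE; 95% interval −2.62 to 0.58; limma, adjusted p = 0.814). Without HoxA9wt/Meis1 replicate 3 the difference was −0.31, and without HoxA9wt/Meis1 replicate 2 it was −1.65 (limma, adjusted p = 0.998 for both).

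Of 19 genes known as ERK targets, 9 had their highest value in the same mouse, HoxA9wt/Meis1 replicate 3, as did 11.8% of all genes, and 6 of the 19 lay above the olfactory 95th percentile on every array. The immediate early genes Egr3, Fosb and Fosl1 were not among the 9. Jun measured 7.69, 7.73 and 8.51 in HoxA9AA/Meis1 mice, against 7.76, 7.15 and 9.63 in HoxA9wt/Meis1 mice. Egr2, a zinc finger factor, measured 6.65, 6.77 and 6.54 in HoxA9AA/Meis1 mice, against 6.66, 6.52 and 8.59 in HoxA9wt/Meis1 mice. Both genes, picked here after their values were seen, had their highest value in HoxA9wt/Meis1 replicate 3. Elsewhere Egr2 was near background, and in HoxA9AA/Meis1 replicate 1 and HoxA9wt/Meis1 replicate 2 it lay below the olfactory 95th percentile. The same array had the lowest mature neutrophil level: averaged over 12 marker genes, of which 7 lay above the olfactory 95th percentile on every array, the log2 value was 10.18, 10.56 and 8.88 in HoxA9AA/Meis1 mice, against 9.91, 10.6 and 8.07 in HoxA9wt/Meis1 mice. Of the 12 markers 9 were lowest in HoxA9wt/Meis1 replicate 3, while the other 3, the collagenase gene Mmp8, Lcn2 and Il1r2, were lowest in HoxA9AA/Meis1 replicate 3. Whether marrow composition had a part in the Dusp1 value was not tested.

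The genes most like Dusp1 over the 6 arrays, out of 931 genes with a mean of at least 7 and an SD of at least 0.5, were the activin receptor gene Acvr2a (Pearson r = 0.93), the chemokine gene Ccl2 (0.91) and the immediate early receptor gene Nr4a1 (0.90). Ccl2 measured 6.44, 6.52 and 6.41 in HoxA9AA/Meis1 mice, against 7.0, 6.80 and 9.0 in HoxA9wt/Meis1 mice. With only 6 arrays that share normalization these figures are descriptions. Without HoxA9wt/Meis1 replicate 3 the values for Ccl2 and Nr4a1 were 0.48 and 0.66.

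Dusp2 and Dusp5, both nuclear phosphatases induced by stimulation, varied much less than Dusp1. Both lay nearer background, where signal can understate variation: their least margins above the olfactory 95th percentile were 0.10 and 0.33, against 1.90 for Dusp1. Dusp2 is best known from activated lymphoid and myeloid cells. It measured 7.01, 6.80 and 7.14 in HoxA9AA/Meis1 mice, against 6.98, 6.75 and 7.26 in HoxA9wt/Meis1 mice, a difference of −0.01 ± 0.16 (SE; 95% interval −0.39 to 0.37; limma, adjusted p = 0.994), and its sign turned under median centring (0.012). Dusp5 dephosphorylates ERK and no other kinase of the family to the same degree. It measured 7.23, 7.05 and 7.27 in HoxA9AA/Meis1 mice, against 7.12, 6.98 and 7.30 in HoxA9wt/Meis1 mice, a difference of 0.05 ± 0.12 (95% interval −0.23 to 0.33; limma, adjusted p = 0.971). The 6 mice had the same order for both genes, with HoxA9wt/Meis1 replicate 3 highest and HoxA9wt/Meis1 replicate 2 lowest (r = 0.96, n = 6), within a distance of 0.51 for Dusp2 and 0.32 for Dusp5. Dusp4, a further nuclear phosphatase, lay below the olfactory 95th percentile on all 6 arrays, at 5.94, 5.96 and 5.88 in HoxA9AA/Meis1 mice, against 6.11, 5.94 and 6.10 in HoxA9wt/Meis1 mice. Its difference was −0.12 ± 0.09 (95% interval −0.33 to 0.09; limma, adjusted p = 0.827), and signal this near background can understate a change.

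The promoters of Dusp1 and Dusp5 are shown because both genes answer quickly to stimulation. Dusp1 spread widely between these mice, while Dusp5, which lay nearer background, did not. Each sequence is the 250 bases before the RefSeq transcription start (GRCm38.p6), for Dusp1 at chr17:26508473-26508722 on the minus strand and for Dusp5 at chr19:53528895-53529144 on the plus strand. Capitals mark the core TGACG of the cAMP response element (CRE) on either strand and the CArG box, the site bound by serum response factor.
Dusp1: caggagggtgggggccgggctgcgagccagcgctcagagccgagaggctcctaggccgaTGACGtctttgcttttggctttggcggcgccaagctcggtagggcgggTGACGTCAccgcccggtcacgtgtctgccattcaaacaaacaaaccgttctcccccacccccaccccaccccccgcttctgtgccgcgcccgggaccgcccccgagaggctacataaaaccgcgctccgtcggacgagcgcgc
Dusp5: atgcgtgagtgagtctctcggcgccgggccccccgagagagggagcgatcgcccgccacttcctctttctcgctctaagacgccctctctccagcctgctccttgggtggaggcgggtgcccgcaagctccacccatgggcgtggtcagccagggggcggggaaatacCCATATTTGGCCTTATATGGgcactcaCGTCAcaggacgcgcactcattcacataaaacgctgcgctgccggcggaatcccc
The Dusp1 window holds 1 full CRE (TGACGTCA, made of 2 overlapping cores), 143 to 136 bases before the start, and 1 further core. The Dusp5 window holds 2 adjoining CArG boxes, 82 to 63 bases before the start, and 1 core. Over 32851 RefSeq promoters, windows of the same length hold the full CRE in 1.55%, the core in 17.8% and a CArG box in 1.47%, both strands searched. RefSeq promoter windows were found for 8 of the 10 genes, and among these only Dusp1 had the full CRE and only Dusp5 a CArG box. The AP-1 site TGANTCA and the ETS site CCGGAA, present in 6.75% and 12% of all windows, were in none of the 8. These are matches of letters and no measurement of binding.

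Dusp6 encodes the cytoplasmic phosphatase that acts on ERK above other kinases, and its transcript is the member most often read as ERK output. It measured 6.98, 7.03 and 7.08 in HoxA9AA/Meis1 replicates 1, 2 and 3, against 8.54, 6.96 and 7.21 in HoxA9wt/Meis1 replicates 1, 2 and 3. The 3 HoxA9AA/Meis1 mice lay within 0.10 of each other, and 2 HoxA9wt/Meis1 mice lay next to them. HoxA9wt/Meis1 replicate 1 stood 1.46 above the mean of the other 2 mice of its group. Dusp6 exceeded the olfactory 95th percentile on all 6 arrays, but by as little as 0.26. Its low values are thus near background, where signal can understate a change. The difference between the groups was −0.54 ± 0.39 (SE; 95% interval −1.48 to 0.40; limma, adjusted p = 0.833). Without HoxA9wt/Meis1 replicate 1 it was −0.055 (limma, adjusted p = 0.987), and without HoxA9wt/Meis1 replicate 2 it was −0.845 (limma, adjusted p = 0.998).

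Of the 19 ERK target genes 4 were highest in HoxA9wt/Meis1 replicate 1 and 2 were lowest there. The ETS factor gene Etv5, named after its values were seen, measured 6.06, 6.67 and 6.57 in HoxA9AA/Meis1 mice, against 8.29, 6.5 and 6.63 in HoxA9wt/Meis1 mice. The cyclin gene Ccnd1 measured 7.08, 7.84 and 6.96, against 8.93, 7.56 and 7.96. Both genes thus had their highest value in HoxA9wt/Meis1 replicate 1, by a wide margin for Etv5. Elsewhere Etv5 was near background, and in HoxA9AA/Meis1 replicate 1 and HoxA9wt/Meis1 replicate 2 it lay below the olfactory 95th percentile. Of the 10 feedback genes, 6 were highest there (Dusp4, Dusp6, Spry2, Spry4, Spred1 and Spred2), against 10.6% of all genes. Dusp4 and Spry2 were highest there by only 0.01, and Dusp4 and Spry4 lay below the olfactory 95th percentile on all arrays. The second probe set of Spred2 was highest in HoxA9AA/Meis1 replicate 3 instead (9.23, against 9.08 in HoxA9wt/Meis1 replicate 1). In the same mouse 12 of 14 measured monocyte markers were highest, and 10 of the 14 lay above the olfactory 95th percentile on every array. Their mean log2 value was 8.44, 9.85 and 8.84 in HoxA9AA/Meis1 mice, against 10.2, 9.68 and 9.87 in HoxA9wt/Meis1 mice. Mast cell and basophil markers averaged 7.38, 6.67 and 8.27 over 8 genes in HoxA9AA/Meis1 mice, against 7.79, 6.63 and 6.80 in HoxA9wt/Meis1 mice, and 4 of the 8 lay above the olfactory 95th percentile on every array. The part of monocyte, mast cell or basophil content in the Dusp6 value was not tested.

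**Figure D2:**
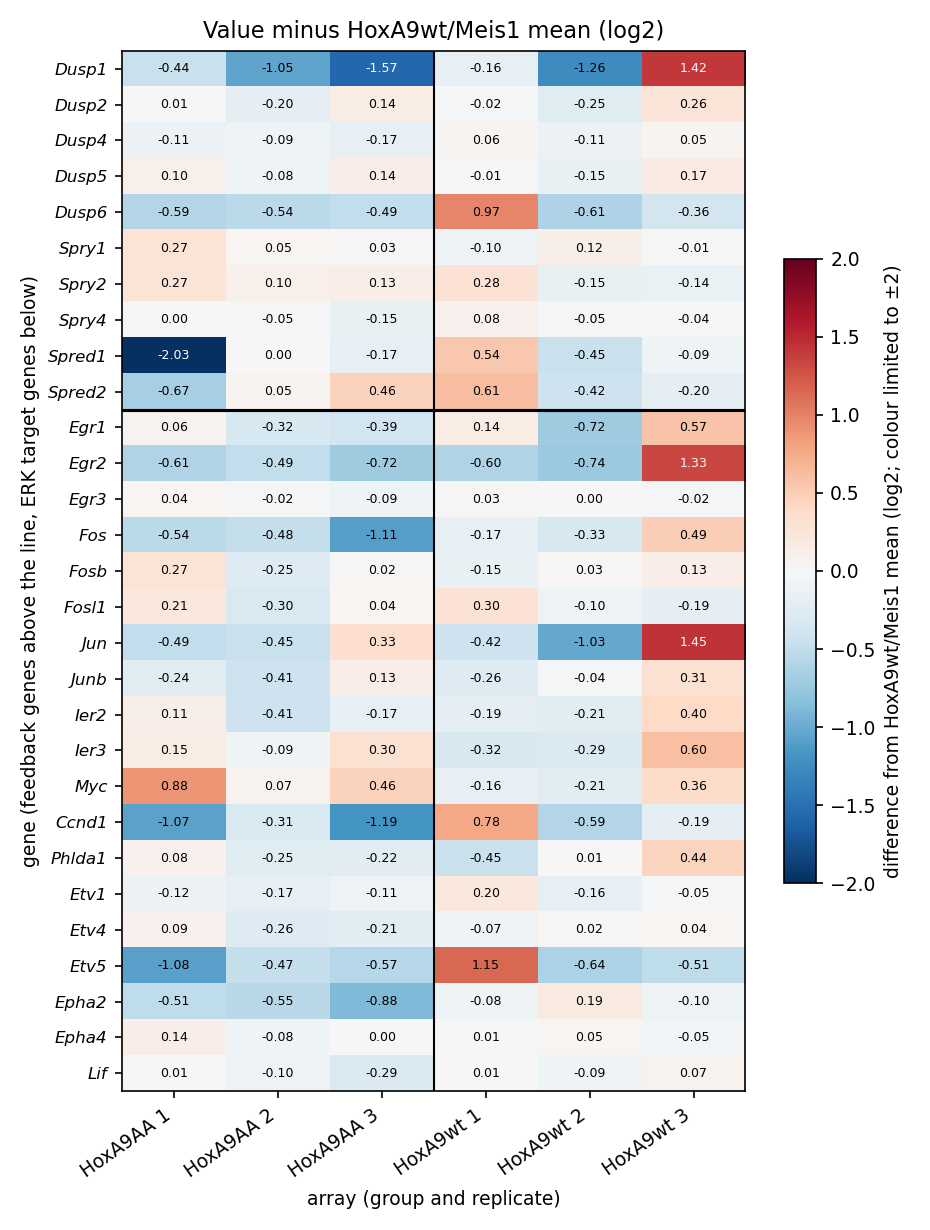
Difference of each array from the HoxA9wt/Meis1 mean (log2, colour limited to ±2, values printed in the cells) for the 10 feedback genes above the line and 19 ERK target genes below it, with the 3 HoxA9AA/Meis1 arrays left and the 3 HoxA9wt/Meis1 arrays right. Dusp1, Jun and Egr2 share a high value in HoxA9wt/Meis1 replicate 3 (1.42, 1.45 and 1.33), and Dusp6, Etv5 and Ccnd1 in HoxA9wt/Meis1 replicate 1 (0.97, 1.15 and 0.78).

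The Sprouty genes varied little between mice. Spry2, whose product binds Cbl and Grb2 downstream of receptor kinases, measured 8.35, 8.18 and 8.21 in HoxA9AA/Meis1 mice, against 8.36, 7.93 and 7.94 in HoxA9wt/Meis1 mice. The difference was 0.17 ± 0.14 (SE; 95% interval −0.17 to 0.51; limma, adjusted p = 0.861), with HoxA9wt/Meis1 replicate 1 at the level of the HoxA9AA/Meis1 mice. The genes most like Spry2 by the same rule were H2-T24, an MHC class I-like gene (r = 0.97), the peptidase gene Cpq (0.96) and the interferon-induced gene Xaf1 (0.95). Spry1, which restrains receptor kinase signalling as well, measured 6.88, 6.66 and 6.64 in HoxA9AA/Meis1 mice, against 6.51, 6.73 and 6.60 in HoxA9wt/Meis1 mice. Its difference was 0.11 ± 0.11 (95% interval −0.15 to 0.37; limma, adjusted p = 0.890), and it exceeded the olfactory 95th percentile on 4 of the 6 arrays. Spry4 did so on 0 arrays, at 6.23, 6.18 and 6.08 in HoxA9AA/Meis1 mice, against 6.31, 6.18 and 6.19 in HoxA9wt/Meis1 mice, with a difference of −0.06 ± 0.09 (95% interval −0.28 to 0.15; limma, adjusted p = 0.936).

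Spred1 encodes an inhibitor that brings the Ras inactivator neurofibromin to the membrane. It measured 7.49, 9.52 and 9.35 in HoxA9AA/Meis1 replicates 1, 2 and 3, against 10.06, 9.07 and 9.43 in HoxA9wt/Meis1 replicates 1, 2 and 3. HoxA9AA/Meis1 replicate 1 alone was low, 1.95 below the mean of the other 2 mice of its group, and the other HoxA9AA/Meis1 values lay within the HoxA9wt/Meis1 range. The difference between the groups was −0.73 ± 0.56 (SE; 95% interval −2.09 to 0.62; limma, adjusted p = 0.846), and without HoxA9AA/Meis1 replicate 1 it was −0.085 (limma, adjusted p = 0.946). Spred2, the close relative of Spred1, measured 8.64, 9.36 and 9.77 in HoxA9AA/Meis1 mice, against 9.92, 8.89 and 9.11 in HoxA9wt/Meis1 mice. It too was lowest in HoxA9AA/Meis1 replicate 1, but the groups overlapped almost completely, with a difference of −0.05 ± 0.36 (95% interval −0.93 to 0.83; limma, adjusted p = 0.994). Its second probe set gave 7.78, 8.73 and 9.23 against 9.08, 8.55 and 8.72, which is the same lowest mouse but a different highest mouse.

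Spred1 lies on chromosome 2, in a stretch whose genes were low in the same mouse. Among the 20 nearest genes with a HoxA9wt/Meis1 mean of at least 7, 10 on each side, the median difference from the HoxA9wt/Meis1 mean was −0.59 in HoxA9AA/Meis1 replicate 1, −0.04 in replicate 2 and 0.08 in replicate 3. In HoxA9AA/Meis1 replicate 1, 15 of the 20 neighbours lay below the HoxA9wt/Meis1 mean, and Spred1, at −2.03, lay below all of them. Over all 770 such genes of chromosome 2 the median in that mouse was −0.21, with 66.8% below the HoxA9wt/Meis1 mean, and over all 9600 such genes it was −0.01, with 51% below. Choosing genes by their mean over all 6 arrays left the neighbours' median at −0.59. Dusp2 lies on the same chromosome, and the median of its 20 neighbours was −0.89 in HoxA9AA/Meis1 replicate 1, with 16 of 20 below the HoxA9wt/Meis1 mean. Dusp2 itself stood at 0.01 there, above 16 of its neighbours. Its signal was near background, with a least margin of 0.10 above the olfactory 95th percentile, so that a drop may be understated. Whether the low Spred1 value is part of a shift of the region was not tested. Of the 10 feedback genes 2 were lowest in HoxA9AA/Meis1 replicate 1, Spred1 and Spred2 (chromosome 11), as were 20.2% of all genes. Of 10 further Dusp, Sprouty and Spred genes 2 were lowest there, among them the phosphatase gene Dusp22 (chromosome 13).

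**Figure D3:**
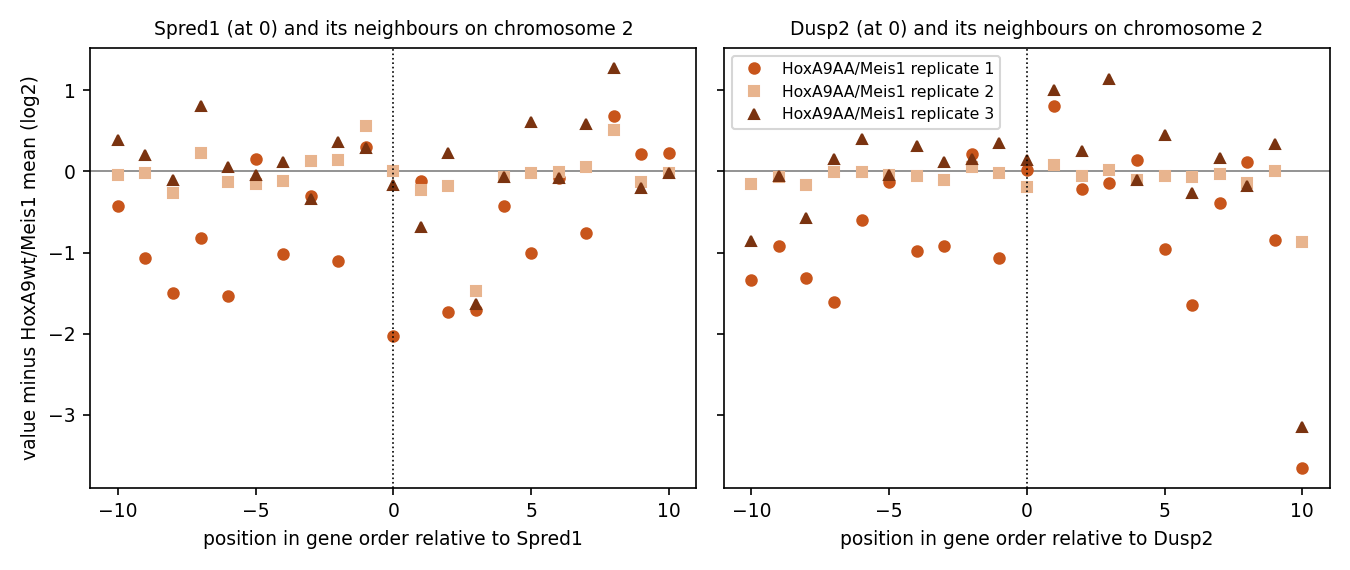
Difference from the HoxA9wt/Meis1 mean (log2, vertical axis) in the 3 HoxA9AA/Meis1 mice for Spred1 (left) and Dusp2 (right), each at position 0, and the 10 nearest expressed genes on each side in chromosome order (horizontal axis, in genes). In HoxA9AA/Meis1 replicate 1, 15 of 20 neighbours of Spred1 and 16 of 20 neighbours of Dusp2 lie below 0, with Spred1 at −2.03 and Dusp2 at 0.01. The Dusp2 signal is near background and can understate a drop.

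Monocyte markers were low in the same mouse, with 11 of 14 lowest in HoxA9AA/Meis1 replicate 1. Their mean was 8.44 there and 8.84 in HoxA9AA/Meis1 replicate 3, and the part of monocyte content in the Spred1 value was not tested. The genes most like Spred1 over the 6 arrays were Notch2, a receptor of cell fate decisions (r = 0.99), the phospholipase family gene Pld4 (0.99) and Stard3nl (0.99). Notch2 measured 8.50, 9.68 and 9.44 in HoxA9AA/Meis1 mice, against 9.99, 9.34 and 9.53 in HoxA9wt/Meis1 mice. The receptor gene Flt3, named after its values were seen, measured 6.92, 10.13 and 10.85, against 10.21, 9.87 and 10.69. It was thus lowest in the mouse with the lowest Spred1. Other receptor genes went the other way: of 12 upstream of ERK, 3 were lowest in this mouse and 8 were highest there. The shares of all genes were 20.2% and 31.9%.

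The precision differed widely between the 10 genes. The standard error of the difference was larger for Dusp1, Spred1, Dusp6 and Spred2 than for 99.2%, 98.6%, 96.6% and 95.9% of all genes. For Dusp1, Spred1 and Dusp6 the intervals include both 0 and a difference of −1. For the 3 Sprouty genes, Dusp2, Dusp4 and Dusp5 the 95% intervals ended between −0.39 and 0.51. Of these, Dusp4 and Spry4 exceeded the olfactory 95th percentile on 0 arrays and Spry1 on 4. Dusp2 and Dusp5 exceeded it by as little as 0.10 and 0.33. Signal near background can understate both spread and change, so that narrow intervals there do not bound a change in transcript.

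**Figure D4:**
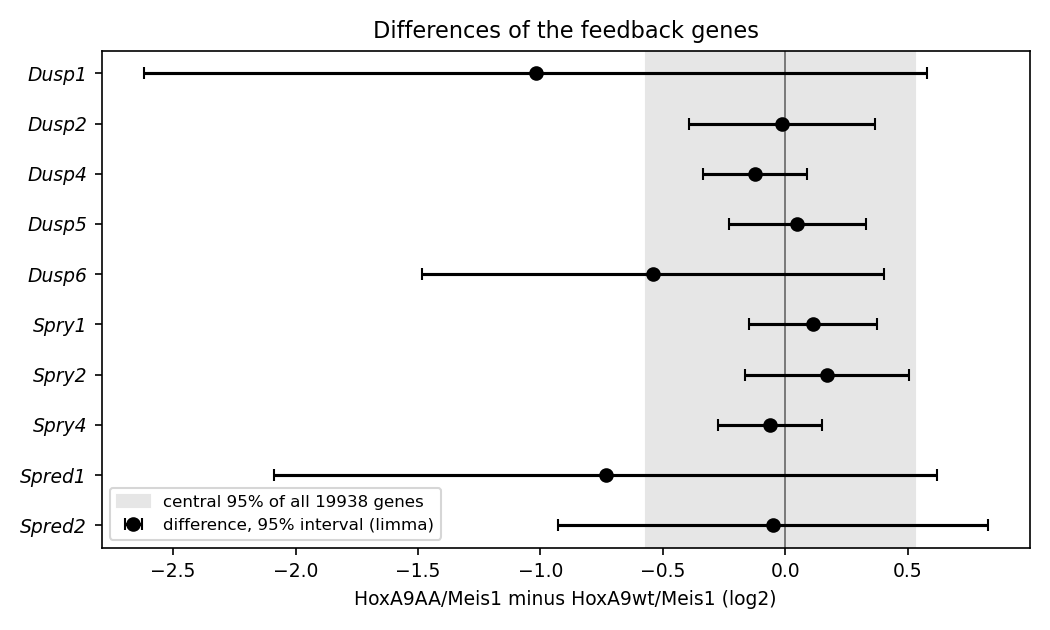
Differences HoxA9AA/Meis1 minus HoxA9wt/Meis1 (log2, horizontal axis) of the 10 feedback genes with their 95% intervals from limma; the grey band holds the central 95% of all 19938 genes (−0.57 to 0.53). Every interval includes 0, and those of Dusp1, Dusp6, Spred1 and Spred2 are the widest.

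Of 10 further genes of the same families, 6 had a higher and 4 a lower mean in HoxA9AA/Meis1 marrow, and 0 passed the test. Dusp3, a small phosphatase of ERK and JNK, had the smallest p of them. It measured 7.37, 8.04 and 7.31 in HoxA9AA/Meis1 mice, against 8.37, 8.09 and 8.25 in HoxA9wt/Meis1 mice, a difference of −0.66 ± 0.21 (limma, adjusted p = 0.731), with replicate 2 next to the HoxA9wt/Meis1 values. Dusp22, which acts on JNK signalling, measured 7.57, 10.63 and 10.28, against 10.71, 10.15 and 10.32, so that 1 mouse set its difference of −0.90 ± 0.77 (limma, adjusted p = 0.871). Without HoxA9AA/Meis1 replicate 1 this difference turned to 0.06. Dusp7, a cytoplasmic ERK phosphatase like Dusp6, differed by 0.21 ± 0.14 (limma, adjusted p = 0.807), and by 0.34 without HoxA9wt/Meis1 replicate 1.

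In the cascade that these genes restrain, no gene passed the test either. Of 26 adaptor, Ras, Raf, MEK and ERK genes, 19 had a probe set of their own, 7 with a higher and 12 with a lower mean in HoxA9AA/Meis1 marrow and a median difference of −0.02. The Ras activator gene Sos1 measured 8.21, 8.32 and 8.10 in HoxA9AA/Meis1 mice, against 8.53, 8.57 and 8.43 in HoxA9wt/Meis1 mice, a small difference with groups apart (−0.30 ± 0.10; limma, adjusted p = 0.731). The ubiquitin ligase gene Cblb and the scaffold gene Shoc2 differed by −0.52 (−0.33 without HoxA9AA/Meis1 replicate 1) and −0.27. The adaptor gene Gab1, next in order of p and named after its values were seen, measured 7.06, 6.88 and 7.46 in HoxA9AA/Meis1 mice, against 6.71, 6.76 and 6.80 in HoxA9wt/Meis1 mice, higher by 0.38 with groups apart (limma, adjusted p = 0.731). The MEK gene Map2k1, which followed Gab1, measured 8.24, 9.10 and 8.42, against 9.07, 9.17 and 9.11. It was lower by 0.53 with groups overlapping (limma, adjusted p = 0.731). An unadjusted p under 0.05 (limma) was reached by 1 gene with a higher and 4 with a lower mean, against 6.74% of all genes. Of 8 measured genes for Ras GTPase-activating proteins, which switch Ras off, 4 had higher and 4 lower means. Rasal3 measured 8.28, 8.04 and 8.51, against 7.76, 7.67 and 7.83 (0.52 ± 0.13), and Rasa2 8.25, 8.91 and 7.92, against 9.57, 9.27 and 8.83 (−0.86 ± 0.29; limma, adjusted p = 0.731 for both), while Rasa1 differed by −0.24 (−0.36 without HoxA9AA/Meis1 replicate 2, −0.14 without replicate 3).

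Among 19 ERK target genes 15 had a lower mean in HoxA9AA/Meis1 marrow, as did 47.2% of all genes. The median difference of the 19 was −0.13, and 0 passed the test. Only 6 of the 19 lay above the olfactory 95th percentile on every array. The ephrin receptor gene Epha2 measured 6.67, 6.63 and 6.30 in HoxA9AA/Meis1 mice, against 7.10, 7.37 and 7.08 in HoxA9wt/Meis1 mice (−0.65 ± 0.14; limma, adjusted p = 0.731). Its groups did not overlap, though HoxA9AA/Meis1 values lay below the olfactory 95th percentile on 2 of 3 arrays. Fos differed by −0.71 (−0.46 without HoxA9wt/Meis1 replicate 3), with groups apart. In HoxA9AA/Meis1 replicates 1 and 3 Fos too lay below the olfactory 95th percentile. Ccnd1 differed by −0.86 (−0.47 without HoxA9wt/Meis1 replicate 1). Of 10 measured p38 and JNK kinase genes 6 had higher means, with differences of 0.42 for Map2k3, 0.20 for Mapk13 and −0.29 for Map2k6. Leaving out 1 array moved Mapk13 to between 0.055 (without HoxA9wt/Meis1 replicate 1) and 0.435 (without HoxA9wt/Meis1 replicate 2), and Map2k6 to −0.038 without HoxA9AA/Meis1 replicate 1. Of 12 upstream receptor genes 8 had higher means, with a median difference of 0.18. Kit measured 9.96, 8.43 and 10.49, against 8.63, 7.54 and 8.38 (1.44 ± 0.55), Csf3r 9.53, 8.64 and 8.72, against 8.15, 8.40 and 8.11 (0.74 ± 0.25), and Csf2ra differed by 0.30 (limma, adjusted p = 0.731 for each). Without HoxA9AA/Meis1 replicate 1 the difference of Csf3r was 0.46. Kit was highest in HoxA9AA/Meis1 replicates 1 and 3, in which Dusp6 measured 6.98 and 7.08, next to its value of 7.03 in replicate 2. The least margin of Dusp6 above the olfactory 95th percentile was 0.26, so that small differences between these values may be understated.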

How the data were processed

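Expression values on a log2 scale were deposited by the authors, 1 column per array, and the submitters' processing notes name oligo and RMA, a method of background correction, quantile normalization and probe set summary. Tool versions are not given here. The log2 scale was read from the range of the values. Of 35556 probe sets 21789 had exactly 1 symbol in the platform annotation, and the brightest per gene gave 19938 genes. Genes without such a probe set were not analysed here. Testing used lmFit and eBayes of limma 3.58.1 (R 4.3.3), two-sided, and p-values were adjusted by Benjamini-Hochberg across the whole table (threshold 0.05), and differences are HoxA9AA/Meis1 minus HoxA9wt/Meis1. The number of arrays limits precision. Each p-value sets a difference against the spread between these 6 mice within their groups, which eBayes estimates in part from all genes. The fit was tested on simulated data.

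The members and the gene lists were chosen with earlier results of these data known. Named are all 10 members, up to 3 genes of each pathway list with the smallest p, and the 3 genes most like the most variable member of each family, without predicted genes. Marker and pathway lists came from general knowledge. Gene order and chromosomes came from the RefSeq table of GRCm38.p6, promoters from RefSeq windows of the same build. The alternatives were a replicate block, each array left out, a filter on dim genes, all probe sets or their mean, quantile normalization, median centring, trend with robust moderation, and array weights. Figures were drawn with matplotlib 3.10.9.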

Additional observations from a re-analysis of the deposited data

How the results depend on the processing

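Under all 14 alternatives 0 of the 10 feedback genes passed the test with limma. Over all genes the count of calls stayed at 0 with all 6 arrays and ranged from 0 to 48 with 1 array left out (48 without HoxA9AA/Meis1 replicate 2, 1 without HoxA9wt/Meis1 replicate 3). Members with an unadjusted p under 0.05 ranged from 0 to 1 when 1 array was left out: Spry2 without HoxA9wt/Meis1 replicate 1 (0.31) and Dusp1 without HoxA9wt/Meis1 replicate 2 (−1.65), against 4.15% and 4.02% of all genes. Members whose groups did not overlap ranged from 0 to 4 (Dusp1, Dusp4, Dusp6 and Spry1 without HoxA9wt/Meis1 replicate 2, against 19.1% of all genes; Spry2 without HoxA9wt/Meis1 replicate 1, against 20.4%). With fewer arrays groups come apart more easily by construction. The sign turned for 3 members with small differences. Dusp2 lay at 0.0028 after quantile normalization, at 0.012 after median centring and between −0.14 and 0.12 with 1 array left out. Dusp5 lay at −0.0047 with array weights and between −0.027 and 0.13 with 1 array left out. Spred2 lay at 0.20 with array weights and between −0.31 and 0.26 with 1 array left out. Dusp22 lay between −1.47 and 0.062 with 1 array left out. The cause of these turns was not tested, except that 1 array decides those with an array left out.

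Deviations of same-numbered arrays from their group means correlated at −0.21, −0.10 and −0.01, so that no likeness of same-numbered mice was seen. These values cannot decide whether the mice were paired, because each group has few arrays and their deviations from the group mean are not independent. With the replicate block 0 genes passed, as without it, and Dusp1 stayed at −1.02 (limma, adjusted p = 0.948). Dusp4, Spry1 and Spry4 fell under the filter on dim genes and have no value there. Choosing neighbours by the mean of all 6 arrays, an alternative chosen after seeing the data, left their medians in HoxA9AA/Meis1 replicate 1 at −0.59 for Spred1 and −0.89 for Dusp2. Signal near that of olfactory receptor genes limits Dusp4 and Spry4 on all arrays and Spry1 on 2. Dusp2, Dusp6 and Dusp5 exceeded the olfactory 95th percentile on every array, but by as little as 0.10, 0.26 and 0.33.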

Other observations

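The mouse genes named Dusp, Spry or Spred that had a probe set of their own numbered 31, of which 21 are outside the 10 described above. Of these 21, 11 had a higher and 10 a lower mean in HoxA9AA/Meis1 marrow, with a median difference of 0.01. The test was passed by 0 of the 21 (limma), while 2 had an unadjusted p under 0.05, against 6.74% of all genes. The 2 genes were Dusp3, described above, and Dusp11, an RNA phosphatase of the same fold, named after its values were seen. Dusp11 measured 8.87, 9.21 and 9.04 in HoxA9AA/Meis1 mice, against 9.29, 9.36 and 9.27 in HoxA9wt/Meis1 mice, a difference of −0.27 (limma, adjusted p = 0.731). Dusp16, a phosphatase of JNK and p38 also picked after its values were seen, measured 6.33, 8.04 and 7.03, against 7.78, 7.22 and 7.80. Like Spred1 and Dusp22 it was lowest in HoxA9AA/Meis1 replicate 1, with the groups overlapping.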
